A study of Mus musculus with 24 samples.

Results

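ATRA and the RARα agonist BMS753 were compared in Rarb(-/-) P19 cells after 10 d of culture, gene by gene, from the deposited table of differential expression of each treatment. The comparison used 2 of the 24 samples of the series, 1 library per ligand. Every gene in either table was taken, 804 of the 1753 genes that appear in at least 1 of the 23 deposited tables, and each was placed in both tables, in the ATRA table only or in the BMS753 table only, separately for up- and down-regulated genes. For genes in both tables the difference of the log2 fold changes, ATRA minus BMS753, was computed.

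P19 is a mouse embryonal carcinoma line that forms neurons and glia when it is given retinoids. The study asked what each RAR subtype contributes to this process, using subtype-selective agonists in WT cells and in lines lacking 1 RAR. ATRA (all-trans retinoic acid, which binds all 3 RARs) and BMS753 were each used at 1 μM for 4 d, after which the cells were kept for 6 d in Neurobasal medium with N2 and B27 supplements lacking vitamin A, so dose and time were matched between the ligands. The Rarb(-/-) line had been made with CRISPR/Cas9 and a puromycin resistance cassette, and whether it is 1 clone is not given in the sources used here. Both tables give log2 fold changes against the same library, WT cells after 2 d of the ethanol vehicle. A fold change therefore holds the effect of the ligand, of the line and of the later day together, and the difference between the ligands is the part that the shared reference does not enter. No vehicle-treated library of the Rarb(-/-) line was used here. WT and Rarg(-/-) cells given the same ligands in the same way, Rara(-/-) cells given ATRA and WT cells kept in ethanol to day 10, 1 library each, were set beside the comparison.

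RARs are nuclear receptors that sit on DNA as heterodimers with RXRs, repress their targets without ligand and activate them when a retinoid binds. Retinoids turn off the pluripotency genes of embryonal carcinoma cells, turn on Hox genes and start neural differentiation, in which proneural transcription factors commit progenitors to neurons and Notch signalling holds other cells as progenitors. In the absence of RARβ, ATRA can act through RARα and RARγ, and BMS753 through RARα.

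A gene entered a table only when its unadjusted p-value, as the authors computed it, was under 0.01. The smallest absolute log2 fold change was 4.61 in the ATRA table and 4.42 in the BMS753 table, so the threshold of 2 used to call genes up- or down-regulated removed no gene. The standard errors implied by the log2 fold changes and p-values ranged from 1.78 to 2.85 with ATRA and from 1.72 to 2.75 with BMS753. At the largest of these, a gene needed an absolute log2 fold change of 7.35 to be listed with ATRA and of 7.08 with BMS753. A gene missing from a table is therefore called not listed, which is not a measurement of no change. The reads behind the tables are not used here, so depth is unknown, and a fold change against a library without reads for the gene cannot be told apart from a measured ratio. None of the 23 tables lists Rara, Rarb or Rarg, and the knockout was therefore not checked at the level of its target.

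ATRA and BMS753 shared fewer than 1 in 2 of their up-regulated genes in the absence of RARβ. With ATRA 359 genes were up-regulated, 20.5% of the 1753 genes, and with BMS753 391 genes, 22.3%. Of these, 166 genes (9.47% of the 1753) were in both tables, 193 (11%) in the ATRA table only and 225 (12.8%) in the BMS753 table only. The shared genes made up 46.2% of the ATRA list, 42.5% of the BMS753 list and 28.4% of the 584 genes in either. For the down-regulated genes the lists were unequal in size. ATRA down-regulated 180 genes (10.3%) and BMS753 119 (6.79%), with 79 (4.51%) in both tables, 101 (5.76%) in the ATRA table only and 40 (2.28%) in the BMS753 table only. The shared genes were 43.9% of the ATRA list and 66.4% of the BMS753 list. No gene was up-regulated by 1 ligand and down-regulated by the other.

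**Figure D1:**
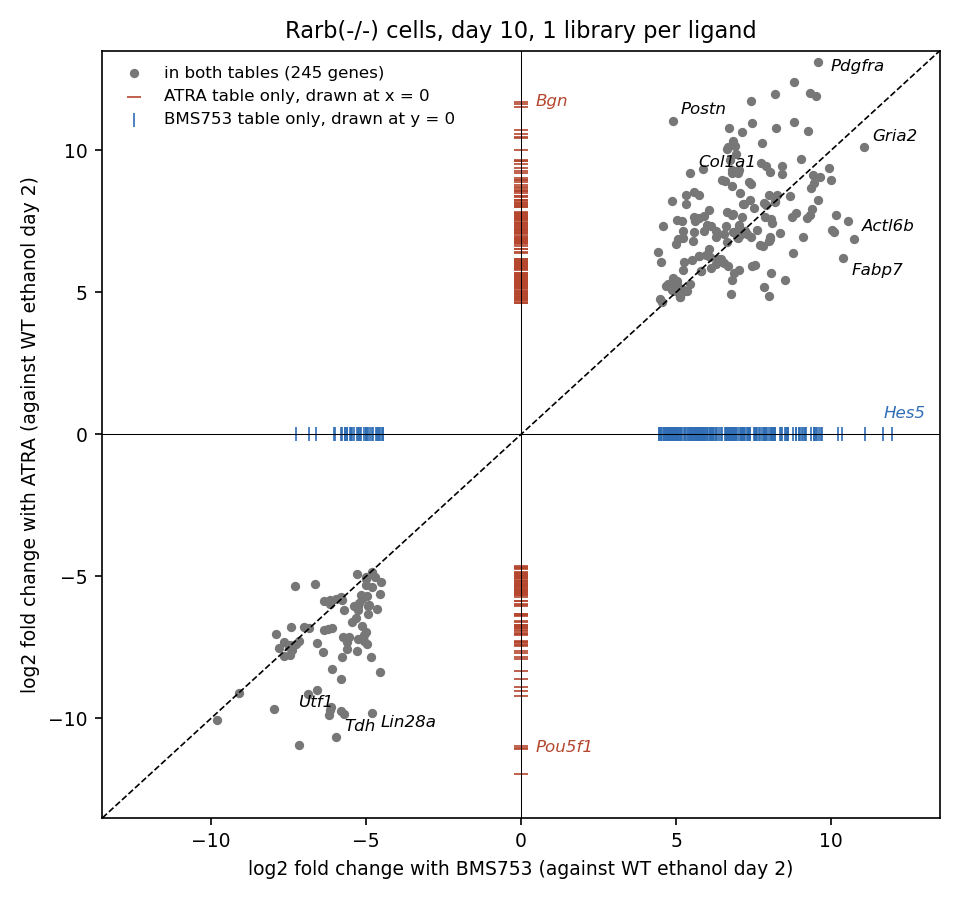
Log2 fold change of each gene with BMS753 (horizontal axis) and with ATRA (vertical axis) in Rarb(-/-) cells at day 10, both against WT ethanol day 2, with 1 library per ligand. Grey points are the 245 genes in both tables, the dashed line marks equal values, and coloured ticks are genes in 1 table only, drawn on an axis because their other value is not known. Postn (11.04 with ATRA, 4.88 with BMS753) lies farthest above the line and Fabp7 (6.20 and 10.38) farthest below it among the shared up-regulated genes.

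The same ligands at the same doses shared more up-regulated genes in the other lines. In WT cells 300 genes were up-regulated in both tables, 95 with ATRA only and 83 with BMS753 only, so that the shared genes were 62.8% of those in either. In Rarg(-/-) cells these numbers were 253, 122 and 95, and the shared genes were 53.8% of those in either. For the down-regulated genes the shared part was 35.9% in Rarb(-/-) cells, 54.7% in WT cells and 66.0% in Rarg(-/-) cells. With 1 library per condition, the difference between lines was not tested.

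**Figure D2:**
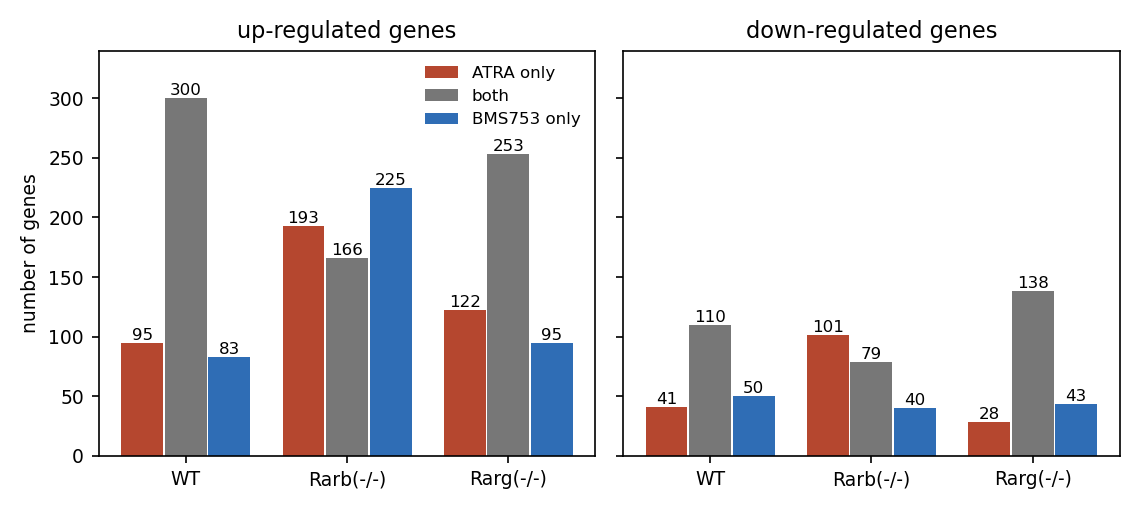
Number of genes up-regulated (left) and down-regulated (right) in the ATRA table only, in both tables and in the BMS753 table only, for WT, Rarb(-/-) and Rarg(-/-) cells at day 10. The bar for both tables is the tallest of the 3 in WT and Rarg(-/-) cells, and among the up-regulated genes of Rarb(-/-) cells it is the shortest, with 166 genes.

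Genes listed for 1 ligand only had higher p-values in their own table than the shared genes. The median p-value of the authors' tables was 0.00403 for genes up-regulated in the ATRA table only and 0.00315 for those in the BMS753 table only. The shared up-regulated genes had median p-values of 0.00155 with ATRA and 0.00213 with BMS753. Many of the single-ligand calls thus lay near the limit of the tables, and their absence from the other table does not separate the ligands. Genes whose log2 fold change exceeded the largest value needed in the other table numbered 78 of the 193 listed with ATRA only and 63 of the 225 listed with BMS753 only. Among the down-regulated genes, 20 of 101 with ATRA only exceeded it and 0 of 40 with BMS753 only. Exceeding it does not separate the ligands either, since the unlisted value may lie just under the limit. The limit itself rests on the standard errors of listed genes only.

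Transcription factors of neural progenitors and neurons were listed mostly with BMS753. Of 114 such genes in the list used, 58 were in some table of the series. ATRA up-regulated 5 of them in Rarb(-/-) cells (8.62% of the 58, against 20.5% of all listed genes), and BMS753 up-regulated 36 (62.1%, against 22.3%). Irx3, Irx5, Tshz1 and Tshz2, homeobox and zinc finger factors of regional patterning, were up-regulated by both ligands, and Dlx5, a homeobox factor of forebrain and placodes, with ATRA only. The remaining 32 were listed with BMS753 only, and 13 of these 32 exceeded the largest value needed for the ATRA table.

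Hes5, the Notch effector that keeps neural progenitors undifferentiated, had the largest log2 fold change of the genes listed with BMS753 only, 11.96 (p = 1.38e-05 in the authors' table), and was not listed with ATRA. Lhx5, a LIM homeobox factor of early forebrain and spinal interneurons, followed with 11.67. Nhlh2 (9.50) and Neurod1 (8.04), both bHLH factors of young neurons, and the proneural factor Neurog2 (9.14) were likewise listed with BMS753 only. In WT cells both ligands up-regulated Hes5, to 9.40 with ATRA and 9.15 with BMS753, and in Rarg(-/-) cells to 7.50 and 7.88. Of the 32 factors listed with BMS753 only in Rarb(-/-) cells, 24 were in the ATRA table of WT cells, 12 in that of Rarg(-/-) cells and 7 in that of Rara(-/-) cells. Over the whole list WT cells had 30 factors up-regulated with ATRA and 27 with BMS753, and Rarg(-/-) cells had 17 and 28.

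The other genes that led the BMS753-only list were of neural patterning or neuropeptide function. Cartpt, the precursor of CART neuropeptides, reached 11.10, Gbx2, a homeobox factor of the anterior hindbrain, 10.35, and Msx3, a homeobox factor of the dorsal neural tube, 9.72. Gm16551, a predicted transcript, reached 10.21. All 4 were in the ATRA table of WT cells, at 7.15, 10.46, 9.95 and 7.27 in the same order.

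Genes of differentiated neurons were also listed in larger number with BMS753. Of 17 listed genes of the neuronal cytoskeleton and axon, ATRA up-regulated 5 (29.4%, against 20.5% of all listed genes) and BMS753 14 (82.4%, against 22.3%). The share with ATRA was thus above that of all listed genes, whereas for the transcription factors it was below. The list also holds neuronal genes that are not of the cytoskeleton or axon. Among those counted were Actl6b with both ligands, and Celf3, Elavl3, Elavl4 and Rbfox1 with BMS753 only. The 10 with BMS753 only included Dcx, a microtubule protein of migrating neurons, at 7.51, Gap43 of growing axons at 5.30, Map2 of dendrites at 4.91 and Tubb3, the neuronal β-tubulin, at 4.49. Tubb3 and Map2 lay close to the smallest value of the table, and their absence with ATRA therefore does not separate the ligands.

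Genes of synaptic vesicles and secretory granules numbered 2 with ATRA (18.2%, against 20.5% of all listed genes) and 8 with BMS753 (72.7%, against 22.3%) among 11 listed. Syt1, the calcium sensor of vesicle release, and Scg2, a granin, were shared, at 4.83 and 4.82 with ATRA and 5.14 and 5.13 with BMS753. Among 13 listed genes of GABA and glycine transmission, ATRA had 1 (7.69%), Gabra4, a receptor subunit, at 5.81. BMS753 had 5 others (38.5%), among them Gad1 (7.39) and Gad2 (6.10), which make GABA, the vesicular transporter Slc32a1 (7.10) and the receptor subunit Gabra2 (7.10). At a p-value limit of 0.001 no gene of this group was left with either ligand. In WT cells ATRA up-regulated 8 and BMS753 4 genes of this group. Of 12 listed glutamate receptors and transporters, ATRA up-regulated 2 (16.7%) and BMS753 5 (41.7%). Both ligands up-regulated Gria2, an AMPA receptor subunit, at 10.12 with ATRA and 11.05 with BMS753, and Slc17a6, a vesicular glutamate transporter, at 7.93 and 9.37. Grin2b (6.70), Grik1 (5.16) and Slc1a2 (5.07) were added with BMS753 only. Ion channel genes numbered 3 with ATRA (15.8%) and 8 with BMS753 (42.1%) of 19 listed, and axon guidance genes 13 (40.6%) and 15 (46.9%) of 32. The dopaminergic and cholinergic genes Th and Chat, and the glial genes Gfap and Olig2, were listed in no table of the series.

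**Figure D3:**
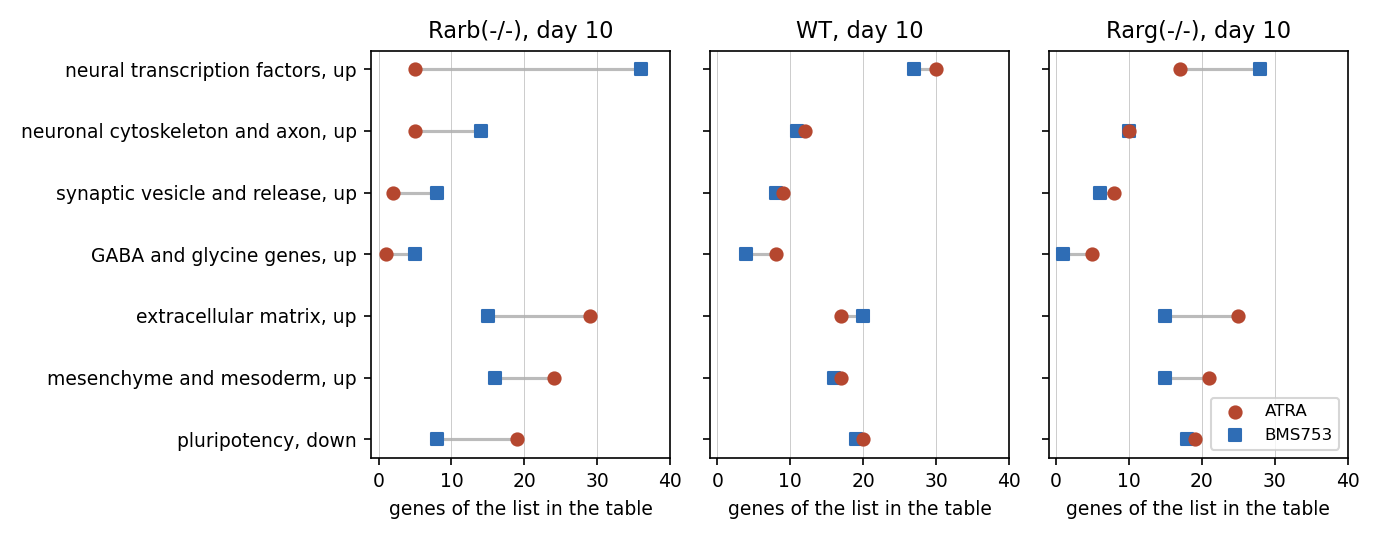
Number of genes of each list in the ATRA table (circles) and in the BMS753 table (squares) in Rarb(-/-), WT and Rarg(-/-) cells at day 10. In Rarb(-/-) cells the square lies to the right for the 4 neural lists (36 against 5 for transcription factors) and the circle for extracellular matrix (29 against 15), mesenchyme and the down-regulated pluripotency genes (19 against 8). In WT cells circle and square lie within 4 genes of each other for all 7 lists. In Rarg(-/-) cells the square lies to the right for transcription factors (28 against 17) but for none of the other neural lists. The circle lies to the right there for extracellular matrix (25 against 15) and mesenchyme (21 against 15).

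The broader marker lists of the study divided less. Of its neuron markers, 330 were in some table, and ATRA up-regulated 88 (26.7%) and BMS753 117 (35.5%), with 43 in both tables, 45 with ATRA only and 74 with BMS753 only. In WT cells the numbers were 129 with ATRA and 110 with BMS753, and WT cells in ethanol to day 10 had 18. The 45 neuron markers listed with ATRA only included Dcn, Tnc, Vcan and Adamts2, which encode matrix proteins or their protease. Of 98 listed astrocyte markers ATRA up-regulated 24 (24.5%) and BMS753 23 (23.5%), close to the 20.5% and 22.3% of all listed genes. Of 100 listed OPC markers the numbers were 26 (26%) and 32 (32%), and with a p-value limit of 0.001 they were in the opposite order, 12 and 8. GABAergic markers numbered 32 (41.0%) and 27 (34.6%) of 78 listed, glutamatergic markers 21 (30.9%) and 24 (35.3%) of 68, and dopaminergic markers 32 (25%) and 42 (32.8%) of 128. Of the 14 OPC markers up-regulated by both, 12 were larger with ATRA, with a median difference of 2.66, against 0.44 over all 166 shared genes. These 14 included Col1a1, Col1a2, Col3a1, Col6a1, Lum and Pdgfra, which are also in the mesenchyme list. Whether such markers came from glial progenitors or from other cells cannot be told apart in these bulk libraries.

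Extracellular matrix genes were listed more often with ATRA. Of 45 listed, ATRA up-regulated 29 (64.4%, against 20.5% of all listed genes) and BMS753 15 (33.3%, against 22.3%), with 13 in both tables, 16 with ATRA only and 2 (Col22a1 and Mmp24) with BMS753 only. In 12 of the 13 shared genes the value was larger with ATRA, and the median difference was 2.92. Bgn, the proteoglycan biglycan, was the largest value listed with ATRA only (11.69, p = 2.54e-05 in the authors' table). Mgp, matrix Gla protein, at 11.62, Matn4, a matrilin, at 10.71 and Eln, elastin, at 8.68 were also listed with ATRA only. In WT cells the count was 17 with ATRA and 20 with BMS753, and in Rarg(-/-) cells 25 and 15. Bgn was at 7.74 with BMS753 in WT cells, where it was not listed with ATRA, and at 9.43 with ATRA in Rarg(-/-) cells.

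Postn, which encodes the matrix protein periostin, had the largest difference of all shared genes. Its log2 fold change was 11.04 with ATRA and 4.88 with BMS753, a difference of 6.16 with a joint standard error of 3.01 and a 95% interval from 0.26 to 12.05. It was the only one of the 245 shared genes whose interval did not include 0, before any allowance for the number of genes compared. In WT cells Postn was at 6.67 with ATRA and 7.07 with BMS753. In Rarg(-/-) cells it was at 9.60 and 4.59. The fibrillar collagen gene Col1a1 differed by 3.74 (9.19 with ATRA, 5.45 with BMS753) with an interval from -1.92 to 9.39. Col3a1 was among the largest values with either ligand, 11.90 and 9.51.

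Mesenchyme and mesoderm genes went the same way, and all 16 listed with BMS753 were also listed with ATRA. ATRA up-regulated 24 of the 34 listed (70.6%, against 20.5% of all listed genes) and BMS753 16 (47.1%, against 22.3%), and 15 of the 16 shared values were larger with ATRA, with a median difference of 2.60. Pdgfra, a PDGF receptor of mesenchyme and glial progenitors, was the largest value with ATRA, 13.09, and reached 9.59 with BMS753. Ccn4, a secreted WNT-induced protein, was at 12.02 and 9.32. The 8 genes with ATRA only were Col5a1, Dcn and 6 transcription factors of mesoderm and limb or trunk mesenchyme (Foxc1, Meox1, Meox2, Osr2, Tbx5 and Tcf21), at 4.79 to 9.62. In WT cells the counts were 17 and 16, in Rarg(-/-) cells 21 and 15, and in WT cells kept in ethanol 3.

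Markers of other cell types were few. Of 12 listed surface epithelium and placode genes ATRA up-regulated 4 (33.3%, against 20.5% of all listed genes) and BMS753 0 (against 22.3%). The 4 included the keratins Krt14 (10.56), Krt15 (5.82) and Krt17 (8.35). In WT cells the order was reversed, with 2 under ATRA and 4 under BMS753, and Krt14 was listed there with BMS753 only (7.07). Rarg(-/-) cells had 5 and 3. WT cells in ethanol also had 4 of this list, Krt17 among them at 7.82. Gata6, a factor of endoderm and heart, at 8.07, Kdr, a VEGF receptor, at 6.18, and Mef2c, a muscle and neuron factor, at 5.51 were listed with ATRA only. Of the stress genes Egr1 was at 6.23 with ATRA and 6.10 with BMS753, and Cdkn1a (5.61) and Fos (5.41) were listed with ATRA only. Neural crest genes numbered 3 with ATRA (30%) and 6 with BMS753 (60%) of 10 listed, and each ligand had 6 in WT cells. Of 18 oligodendrocyte genes Pdgfra alone was listed. The part that any of these cell types had in the differences between the ligands was not tested, and fewer cells of a type cannot be told apart from less RNA per cell in bulk RNA.

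**Figure D4:**
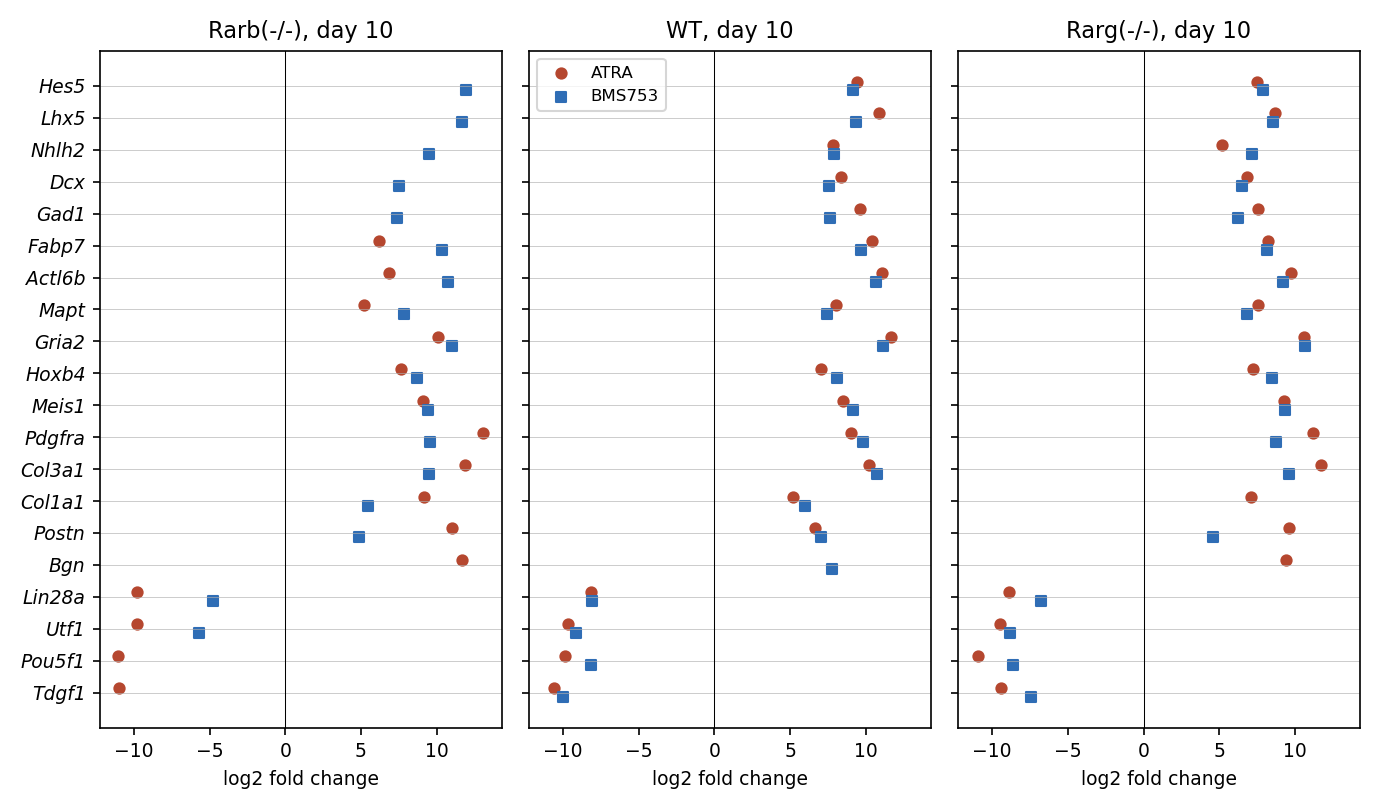
Log2 fold change against WT ethanol day 2 of 20 genes with ATRA (circles) and BMS753 (squares) at day 10 in Rarb(-/-), WT and Rarg(-/-) cells, 1 library each. A missing symbol means that the gene was not in that table. In Rarb(-/-) cells Hes5, Lhx5, Nhlh2, Dcx and Gad1 have a square only and Bgn, Pou5f1 and Tdgf1 a circle only, whereas in WT cells all of these but Bgn have both.

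Signalling genes were listed in larger number with BMS753. Of 43 listed BMP, WNT, FGF, hedgehog and Notch genes ATRA up-regulated 12 (27.9%, against 20.5% of all listed genes) and BMS753 20 (46.5%, against 22.3%), with 7 in both. The other lines had the same order, 15 and 19 in WT cells and 16 and 21 in Rarg(-/-) cells. The 13 with BMS753 only included the Notch ligands Dll1 (6.02) and Dll4 (7.32), the Notch targets Heyl (6.68) and Nrarp (4.95), the hedgehog ligand Shh (7.58) and the WNT ligands Wnt1 (8.09), Wnt3a (6.19), Wnt3 (6.00), Wnt6 (5.06) and Wnt4 (4.50). With ATRA only the list had Fgf18 (9.99), Bmp5 (7.61), Rspo3, a WNT co-activator (5.43), and the non-canonical WNT ligands Wnt11 (5.33) and Wnt5a (4.79). Bmp6 was listed with BMS753 only and Bmp4 with both ligands, so the BMP genes were not divided by ligand. Of the single-ligand values named here, only those of Shh, Wnt1, Fgf18 and Bmp5 exceeded the largest value needed in the other table. For the rest, absence from the other table does not separate the ligands. Nor does it for Shh, Wnt1, Fgf18 and Bmp5, whose unlisted value may lie just under that limit. Bmp2 was at 7.02 with ATRA and 7.07 with BMS753, and Fgf9 at 7.16 and 7.23, so these differed by far less than their standard errors.

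Hox genes and direct retinoid pathway genes, where up-regulated, were mostly listed with both ligands. Hoxa2, Hoxa3, Hoxb3 and Hoxb4, 4 of the 9 listed genes of paralogue groups 1 to 5 (44.4%), were up-regulated by both ligands. Of all listed genes ATRA up-regulated 20.5% and BMS753 22.3%. Hoxb4 was at 7.65 with ATRA and 8.72 with BMS753. In groups 6 to 13, 7 of 14 listed genes were up-regulated by both and Hoxa10 (7.15) and Hoxb9 (5.28) with BMS753 only, whereas Hoxc13 was down-regulated by both. The shares up-regulated were 50% with ATRA and 64.3% with BMS753. Neither Hoxa10 nor Hoxb9 exceeded the largest value needed for the ATRA table. Hoxc13 also fell in WT cells kept in ethanol to day 10 (-7.38). At a p-value limit of 0.001 these groups had 4 genes with ATRA and 3 with BMS753. Hoxc8 had the widest gap in these groups, 10.62 with ATRA and 7.11 with BMS753, with an interval of the difference from -3.80 to 10.82. Of 14 listed retinoid pathway genes each ligand up-regulated the same 4 (28.6%), not far above the shares of all listed genes. Meis1 and Meis2, the homeobox cofactors of Hox proteins, were at 9.11 and 5.75 with ATRA and 9.41 and 5.79 with BMS753. The difference for Meis2 was -0.04 with an interval from -5.28 to 5.20, so a difference of several log2 units either way was within the error. Aldh1a2, the enzyme that makes retinoic acid, was at 8.43 and 5.31, and Crabp1, a retinoic acid binding protein, was at 5.49 with ATRA, 0.60 above its value with BMS753. Dhrs3, which reduces retinaldehyde, was down-regulated with BMS753 only (-5.01), a value below the largest needed for the ATRA table.

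Pluripotency genes fell in larger number and further with ATRA. Of 22 listed, ATRA down-regulated 19 (86.4%, against 10.3% of all listed genes) and BMS753 8 (36.4%, against 6.79%), with 7 in both tables, 12 with ATRA only and Dnmt3l with BMS753 only. All 7 shared genes had the larger fall with ATRA, with a median difference of -3.46, against -0.73 over all 79 shared down-regulated genes. Lin28a, an RNA-binding protein that blocks let-7 maturation, was at -9.80 with ATRA and -4.80 with BMS753, the largest difference among the shared down-regulated genes. Utf1, a chromatin protein of pluripotent cells, was at -9.84 and -5.72, and Nr0b1, an orphan nuclear receptor, at -9.74 and -5.80. The interval of the difference ran from -10.64 to 0.64 for Lin28a and included 0 for the other 6 too.

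Pou5f1, the core pluripotency factor Oct4, was at -11.04 with ATRA (p = 2.94e-06 in the authors' table) and not listed with BMS753. Its value exceeded the 7.08 needed there, but how far it fell with BMS753 is not known. Tdgf1, the Nodal co-receptor Cripto, was at -10.97, Gdf3, a TGFβ family ligand, at -9.05, and Foxh1, a partner of SMADs in Nodal signalling, at -9.21, again with ATRA only. Nodal (-8.34), Lefty1 (-6.70), Lefty2 (-7.64), Sall4 (-8.88), Otx2 (-7.30) and Nanog (-5.96) were also listed with ATRA only. Pou5f1-rs4 (-11.95) and Pou5f1-rs6 (-11.08), retrocopies of Pou5f1, had the same pattern, but near-identical copies share reads and their values are uncertain. Of the 12 genes of the list with ATRA only, BMS753 down-regulated 11 in WT cells and 11 in Rarg(-/-) cells, with Pou5f1 at -8.14 and -8.64. Over the whole list the numbers down-regulated were 20 with ATRA and 19 with BMS753 in WT cells, 19 and 18 in Rarg(-/-) cells, and 7 in WT cells kept in ethanol. Klf4, another pluripotency factor, was up-regulated with ATRA only (5.57), a value below the largest needed for the BMS753 table. It was also up-regulated in WT cells kept in ethanol to day 10, and with ATRA in Rarg(-/-) and Rara(-/-) cells.

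The promoters of 4 genes are shown as examples of 4 of the patterns, not of every class. They are Postn, shared with the widest gap towards ATRA, Fabp7, shared with the widest gap towards BMS753, Hes5, the top gene with BMS753 only, and Pou5f1, with ATRA only among the down-regulated genes. Each is 300 bases of the mm9 genome, 250 before and 50 from the annotated 5′ end of the gene in GENCODE M1, all on the plus strand. Capitals mark AGGTCA, the core motif bound by retinoid and related nuclear receptors, or TGACCT, the same motif on the other strand. The windows are chr3:54164781-54165080 for Postn, chr10:57504437-57504736 for Fabp7, chr4:154334782-154335081 for Hes5 and chr17:35642732-35643031 for Pou5f1.
Postn: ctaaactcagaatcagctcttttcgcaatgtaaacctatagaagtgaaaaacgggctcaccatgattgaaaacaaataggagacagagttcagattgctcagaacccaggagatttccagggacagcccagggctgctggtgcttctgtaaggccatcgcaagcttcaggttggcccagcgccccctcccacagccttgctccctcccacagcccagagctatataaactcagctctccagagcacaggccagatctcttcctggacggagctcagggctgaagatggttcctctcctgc
Fabp7: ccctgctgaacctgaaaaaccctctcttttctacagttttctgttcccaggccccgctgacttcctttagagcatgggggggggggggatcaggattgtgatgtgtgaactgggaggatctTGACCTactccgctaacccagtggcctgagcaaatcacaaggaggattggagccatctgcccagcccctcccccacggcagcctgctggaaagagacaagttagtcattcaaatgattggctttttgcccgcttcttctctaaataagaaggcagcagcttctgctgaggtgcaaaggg
Hes5: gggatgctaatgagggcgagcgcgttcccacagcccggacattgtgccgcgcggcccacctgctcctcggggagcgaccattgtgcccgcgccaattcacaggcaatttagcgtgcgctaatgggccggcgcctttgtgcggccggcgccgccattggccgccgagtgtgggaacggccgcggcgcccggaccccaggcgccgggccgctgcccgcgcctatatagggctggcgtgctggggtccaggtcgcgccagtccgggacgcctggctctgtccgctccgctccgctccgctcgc
Pou5f1: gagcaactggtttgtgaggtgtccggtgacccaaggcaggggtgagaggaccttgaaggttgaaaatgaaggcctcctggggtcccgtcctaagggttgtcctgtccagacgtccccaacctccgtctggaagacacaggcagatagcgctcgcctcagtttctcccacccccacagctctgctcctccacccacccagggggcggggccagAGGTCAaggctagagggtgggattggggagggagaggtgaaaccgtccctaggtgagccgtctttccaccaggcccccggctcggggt
Postn and Hes5 had no match in these letters, Fabp7 had 1 starting 129 bases before the 5′ end and Pou5f1 had 1 starting 38 bases before it. Among 22380 protein-coding promoters of the same length 14.4% held the motif. The share was 6.94% for genes up-regulated by both ligands, 8.33% with ATRA only and 8.76% with BMS753 only. It was 15.2% for genes down-regulated by both, 23.6% with ATRA only (21 of 89) and 16.1% with BMS753 only. A direct repeat of AGGTCA spaced by 5 bases, searched on both strands and holding the single motif within it, was in 1 of the 22380 promoters and in 0 of the genes compared here. At that rarity the 0 says nothing about these genes. Only exact repeats within the 300 bases were searched. A match describes the letters of the window and is not a binding site.

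Among the shared up-regulated genes the differences spread widely around a small median. The median difference was 0.44, with quartiles of -0.39 and 1.83 and a range from -4.18 to 6.16. ATRA gave the larger value for 103 of the 166 genes. Past a difference of 1, 61 genes (36.7%) were larger with ATRA and 31 (18.7%) larger with BMS753. The median absolute difference was 1.17, compared with 0.58 in WT cells and 0.62 in Rarg(-/-) cells. The joint standard error had a median of 3.15, and 15 genes differed by more than 1 joint standard error.

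Genes with the larger value under ATRA included several outside the lists of matrix and mesenchyme. Rtl1 and Rtl3, genes derived from retrotransposons, were at 12.39 and 11.74 with ATRA and at 8.78 and 7.40 with BMS753. Enpep, a membrane aminopeptidase, was at 10.78 and 6.72, and Islr, an immunoglobulin superfamily protein of mesenchymal cells, at 11.99 and 8.18. Rtl1 was not listed in WT cells with ATRA and was at 7.56 with BMS753. Of the genes with ATRA only, Vwc2, a secreted BMP antagonist, reached 11.51.

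The widest gaps towards BMS753 included genes of neurons and radial glia. Fabp7, the fatty acid binding protein of radial glia, was at 6.20 with ATRA and 10.38 with BMS753, a difference of -4.18 with an interval from -10.16 to 1.80. Actl6b, a subunit of the neuronal BAF chromatin remodeller, was at 6.86 and 10.73, and Mapt, the microtubule protein tau, at 5.18 and 7.82. Nrxn3, a presynaptic adhesion protein, was at 4.87 and 7.99, Dner, a Notch ligand of neurons, at 5.43 and 8.52, Adcyap1r1, the PACAP receptor, at 7.51 and 10.55, and Ttc9b at 7.13 and 10.09. In WT cells Fabp7 was at 10.42 with ATRA and 9.71 with BMS753, and Actl6b at 11.07 and 10.66. For both genes the ATRA value of Rarb(-/-) cells lay lowest among the 4 values of the 2 lines.

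The shared down-regulated genes leaned towards the larger fall with ATRA. The median difference was -0.73, with quartiles of -1.95 and -0.07, and 62 of the 79 genes (78.5%) fell further with ATRA. Past a difference of 1, 36 genes (45.6%) fell further with ATRA and 2 (2.53%) with BMS753. These 2 were 1700003L19Rik, an uncharacterized clone (-5.33 and -7.28), and Pdzk1ip1, a small membrane protein (-5.26 and -6.63). The median difference in WT cells was -0.06 and in Rarg(-/-) cells -0.54. Outside the pluripotency list, Tdh, the threonine dehydrogenase of mouse pluripotent cells, was at -10.66 with ATRA and -5.97 with BMS753, Cyp2b23, a cytochrome P450, at -10.94 and -7.17, and Slco4a1, an organic anion transporter, at -8.38 and -4.56. Fgf4, a growth factor of the inner cell mass, was at -9.65 and -7.95, and Tspan10, a tetraspanin, at -10.07 and -9.80.

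Some falls had the same value in several tables. Rcvrn, a calcium sensor of photoreceptors, was at -9.10 with both ligands. WT cells at day 10 gave the same -9.10 under ATRA and under ethanol. In all, 14 down-regulated genes with ATRA and 5 with BMS753 had a value within 0.001 of the same gene's value in another table, and 3 shared genes had equal values with both ligands. The ATRA values of Fgf4, Tspan10 and Lefty2 given above were among the 14. Whether such values come from libraries without reads for the gene was not tested, so differences that rest on them are uncertain. Of the shared genes, 70 of 79 had no such value.

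**Figure D5:**
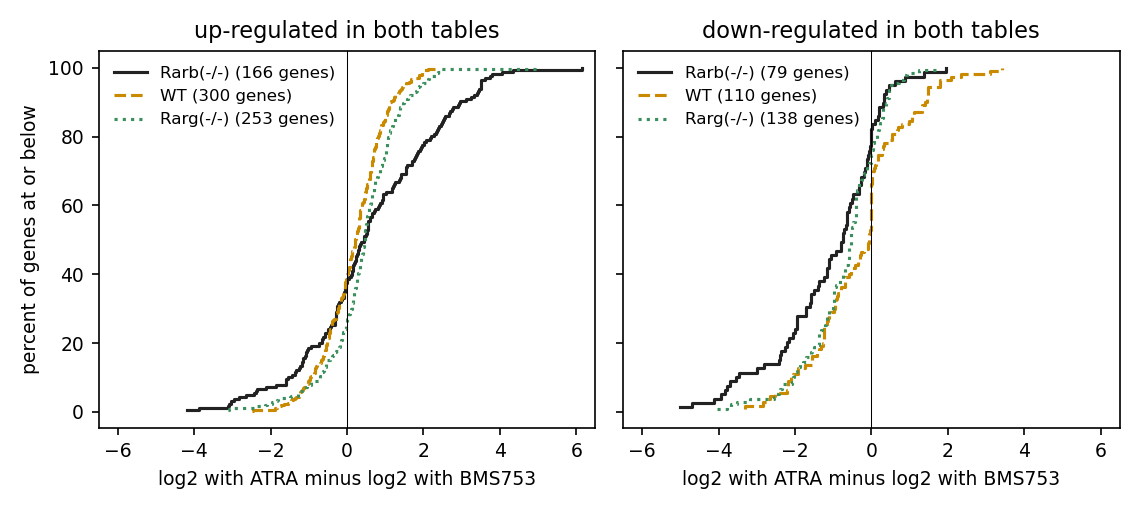
Cumulative percent of the genes in both tables (vertical axis) against the difference of log2 fold changes, ATRA minus BMS753 (horizontal axis), for up-regulated (left) and down-regulated (right) genes in Rarb(-/-), WT and Rarg(-/-) cells at day 10. On the left the Rarb(-/-) curve extends farthest to both sides (median absolute difference 1.17 against 0.58 in WT cells), and on the right it lies left of the WT curve (median -0.73 against -0.06).

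The largest falls listed with BMS753 only were smaller than those with ATRA only. Plekhd1os, an antisense transcript, was at -7.26, Osgin1, an oxidative stress gene, at -6.84, Pdcd1, the immune receptor PD-1, at -6.62, Cd300a, a receptor of leukocytes, at -6.02, and E330020D12Rik, an uncharacterized clone, at -5.80. Tnni3, cardiac troponin I, stood between these last values. In WT cells kept in ethanol to day 10, Plekhd1os was at the same -7.26 and Pdcd1 at -6.89, and the others named here were not listed. Reads of Plekhd1os and of the gene on the opposite strand may not be told apart, since strand use in counting is not given in the sources used here.

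The single-ligand genes of Rarb(-/-) cells stood differently in the other lines. Of the 193 up-regulated with ATRA only, 136 were in neither table of WT cells, 16 in both, 12 with ATRA only and 29 with BMS753 only. In Rarg(-/-) cells 54 of them were with ATRA only, 39 in both and 97 in neither. Of the 225 with BMS753 only, 126 were in both tables of WT cells and 51 in neither, and in Rarg(-/-) cells 63 were in both and 92 in neither. In WT cells ATRA and BMS753 up-regulated 14.5% and 23.3% of the 193, and 68.9% and 64.4% of the 225. The shares of all listed genes there were 22.5% and 21.8%. In Rarg(-/-) cells the shares were 48.2% and 21.8% of the 193 and 36% and 51.1% of the 225, against 21.4% and 19.9%. The 166 shared genes were mostly shared elsewhere, 144 in WT cells and 129 in Rarg(-/-) cells. Of the 101 down-regulated with ATRA only, 37 were in both WT tables and 43 in neither, and of the 40 with BMS753 only, 8 and 13. In WT cells ATRA and BMS753 down-regulated 49.5% and 44.6% of the 101, and 30% and 57.5% of the 40. The shares of all listed genes there were 8.61% and 9.13%. All these tables share their reference library, so the counts stand side by side and are not independent of each other.

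The vehicle and the other agonists gave a background for both lists. In WT cells kept in ethanol to day 10, 29 of the 166 shared genes were up-regulated, 18 of the 193 with ATRA only and 17 of the 225 with BMS753 only. These were 17.5%, 9.33% and 7.56%, against 9.53% of all listed genes, so the single-ligand genes did not exceed that share. Of the down-regulated genes, 28 of 79, 18 of 101 and 3 of 40 fell there (35.4%, 17.8% and 7.5%, against 7.64% of all listed genes). In Rarb(-/-) cells given the RARγ agonist BMS961, at 0.1 μM, 24 of the shared, 17 of the ATRA-only and 8 of the BMS753-only up-regulated genes were listed. Their shares were 14.5%, 8.81% and 3.56%, against 7.02% of all listed genes. Doses differ from the 1 μM of ATRA and BMS753, so no comparison was made with these. At day 4 of ATRA in WT cells, 74 of the 166 shared genes were already up-regulated, 51 of the 225 with BMS753 only and 12 of the 193 with ATRA only. Their shares were 44.6%, 22.7% and 6.22%, against 10.2% of all listed genes.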

How the data were processed

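RNA was sequenced from P19 cells, 1 library per condition, and 24 conditions were deposited as 23 tables of comparison with WT cells after 2 d of ethanol. The methods and the submitters' processing notes name Bowtie2 2.1.0 for mapping to mm9, featureCounts for counting and DESeq2 for the comparisons. The columns used from the deposited files were the log2 fold change of each gene and its p-value without adjustment, both computed by the authors. They are the authors' own comparisons and were used because no other values were at hand. In 1 other table the authors also deposited a standard error, treated as a score. It served to check the implied standard errors (two-sided normal test), which differed from it by a relative error of at most 4.27e-08 in 144 genes. How dispersion was estimated with 1 library per condition is not given in the sources used here, and the p-values do not measure the spread between replicates. Depth is unknown.

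Genes were matched by exact symbol and called beyond a log2 fold change of 2 in either direction. The joint standard error is the root of the summed squared implied standard errors, and intervals are 95% normal intervals. The shared reference enters both standard errors but not the difference, which by itself makes the intervals too wide. With the estimate of dispersion unknown, they are approximate. With 1 library per condition no test between ligands or lines was made. Percentages of all listed genes refer to the 1753 genes in at least 1 table. The sorting of genes into classes was run on simulated data for 1753 genes. There 200 of 200 changed genes were recovered in their class and 0 unchanged genes were called. These counts describe the sorting step only. How well genes are recovered at the standard errors of the deposited tables, or near their p-value limit, was not tested.

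The comparison, the gene lists and the named genes were chosen with earlier results of these data known. Named were, for each direction, the 5 shared genes with the largest mean value, the 6 with the largest difference towards each ligand, the 6 largest in each table only, the genes the study assayed, up to 4 genes per list and all listed Hox and retinoid genes. Other genes were named as examples of their list after their values were seen. Promoters were read from the mm9 genome with the GENCODE M1 annotation. Software was Python 3.11.15, pandas 2.3.3, numpy 2.4.6 and scipy 1.17.1, with figures from matplotlib 3.10.9. The alternatives tried were a p-value limit of 0.001, log2 thresholds of 5 and, on the difference, 2, centring, removal of genes listed in ethanol or of predicted genes and copies, matching without case, markers of 1 list only, and genes in all 6 tables.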

Additional observations from a re-analysis of the deposited data

Results flagged for a closer look

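Some differences between ATRA and BMS753 had opposite signs in Rarb(-/-) cells and in another line, past 1 in both. With 1 library per condition none of these differences between lines was tested, and each is given as the log2 fold change with ATRA minus that with BMS753. Dner was at -3.09 in Rarb(-/-) cells, 1.11 in WT cells and 1.08 in Rarg(-/-) cells. Adcyap1r1 was at -3.04, 1.22 and 1.01 in the same order. Ttc9b was at -2.96 in Rarb(-/-) and 1.63 in WT cells. The potassium channel genes Kcna2 and Kcnk3 were at -1.07 and -1.10 in Rarb(-/-) cells and at 1.35 and 1.16 in WT cells. Pcdh8, a protocadherin, was at -1.18 and 1.23. Epha3, an ephrin receptor, went the other way, with 2.96 in Rarb(-/-) and -1.08 in WT cells. Among the down-regulated genes Tdh was at -4.68 and 1.45, and Pdzk1ip1 at 1.38 and -2.51. The 95% interval of each of these values included 0 in Rarb(-/-) cells.

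Counts of listed genes also changed side. For the neural transcription factors the number up-regulated with ATRA minus that with BMS753 was -31 in Rarb(-/-) and 3 in WT cells. For the neuron markers it was -29 in Rarb(-/-), 19 in WT and 16 in Rarg(-/-) cells, and for the dopaminergic markers -10 in Rarb(-/-) and 5 in WT cells. For extracellular matrix it was 14 in Rarb(-/-) and -3 in WT cells. Rarg(-/-) cells kept the side of Rarb(-/-) cells for the transcription factors, 17 with ATRA and 28 with BMS753. They also kept it for extracellular matrix, 25 and 15, and had 45 and 45 dopaminergic markers. These differences were not tested either.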

How the results depend on the processing

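No paired analysis was possible because each condition has 1 library and no test was made, and for the same reason no replicate could be left out. No median difference of Rarb(-/-) cells changed sign, but the order of some counts turned. A p-value limit of 0.001 in both tables reduced the up-regulated genes to 27 shared, 79 with ATRA only and 76 with BMS753 only, and the down-regulated genes to 11, 42 and 4. ATRA then had more single-ligand up-regulated genes than BMS753, where it had fewer in the full tables, and the median difference of the shared down-regulated genes was -0.18 in place of -0.73. The shared genes past a difference of 1 then numbered 11 towards ATRA and 4 towards BMS753 among the up-regulated, and 3 and 0 among the down-regulated. Counting single-ligand genes only where their own p-value was under 0.001 left 33 up-regulated with ATRA and 52 with BMS753, and 20 and 0 down-regulated. A log2 threshold of 5 left 24 genes down-regulated with BMS753 only. A threshold of 2 on the difference gave 37 and 12 up-regulated genes towards ATRA and BMS753, and 18 and 0 down-regulated. Requiring a 95% interval that leaves out 0 gave 1 and 0, and 0 and 0. Removing genes that changed the same way in WT cells in ethanol left 51 shared down-regulated genes, 21 of them past 1 towards ATRA, and removing predicted genes and copies left 1 towards BMS753. Over the genes in all 6 tables, 50% of the up-regulated genes of WT cells were larger with ATRA, in place of 60%. The median difference of these WT genes was then -0.005, in place of 0.21, so its sign turned. With the limit of 0.001 on the lists, an alternative chosen after seeing the data, ATRA and BMS753 up-regulated 1 and 17 neural transcription factors, 18 and 5 matrix genes and 15 and 6 mesenchyme genes, and down-regulated 15 and 1 pluripotency genes. Neuron markers narrowed to 27 and 32, dopaminergic markers to 10 and 13, signalling genes to 4 and 5, and genes of the neuronal cytoskeleton and synaptic vesicles to 0 and 4 and to 0 and 3. OPC markers turned to 12 and 8, Hox genes of groups 6 to 13 to 4 and 3 and astrocyte markers to 5 and 7. GABA and glycine genes were left with 0 and 0, and axon guidance genes with 2 and 2. Astrocyte markers also turned, to 19 and 20, with markers of 1 list only. Removing genes with equal values in another table was also chosen after seeing the data. Depth limits what these tables can show in a way that cannot be measured here.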
